A study of Pimephales promelas with 27 samples.

Results

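Described here are 150 of the 15208 non-control probes of a fathead minnow microarray, chosen because their mean signal in untreated ovary explants was higher at 9 h of culture than at 6 h and about as high again at 12 h. Each probe had to be well above background on all 27 arrays, which left 10155 probes. A mean within-group SD under 0.6 left 8426. Control means at 9 h and 12 h within 0.3 of each other on the log2 scale left 4237. The 150 with the largest smaller change (9 h minus 6 h or 12 h minus 6 h, in controls) were taken. Levels are log2 processed signals minus the log2 of the 75th percentile of the same array, so that 0 marks that percentile and a difference of 1 is a doubling.

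Ovary explants are pieces of ovary kept in medium, in which oocytes stay together with the granulosa and theca cells that surround them and make steroid hormones. Once tissue is cut and placed in culture, transcript levels can change over hours whether or not an agent is added, so untreated explants of the same culture time are the usual reference. Dihydrotestosterone (DHT) is a strong androgen that binds the androgen receptor, a transcription factor, and that aromatase does not turn into an estrogen. Each array measured whole pieces of tissue, so fewer cells of a type and less RNA per cell cannot be told apart.

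The explants came from female Pimephales promelas. They were held for 6, 9 or 12 h either as controls or with DHT at 1e-06 M. Controls numbered 4, 5 and 4 arrays at 6, 9 and 12 h, and DHT explants 5, 5 and 4, with 1 sample per array. Whether different fish gave the samples of a group is not stated in the labels. The p-values then reflect the spread among these samples alone, which may be technical. The files name probes by contig or sequence number and not by gene, so no gene name, role or cell type marker could be attached to any of the 150.

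Arrays differed in brightness, with a 75th percentile of the signal from 921 to 5709, and the 3 arrays of slide 5 were the dimmest, at 921 to 1222. The share of non-control probes well above background was lowest on control 6 h replicate 1 (73.9%) and control 9 h replicate 2 (74.3%), both on slide 1. Elsewhere it was 80.2% to 89.9%. Among controls of their time, these arrays had the lowest (-3.64) and the highest (-2.40) median of the 150. The 6 h and 9 h arrays shared slides 1 to 4, scanned on 1 day. With DHT they were not evenly spread over these, as 6 h arrays lay on slides 2 and 3 alone. All 12 h arrays lay on slides 5 to 7, scanned on other days, so that 12 h of culture cannot be told apart from slide and scan day. In addition, 11 of the 13 control arrays had a DHT array of the same time as their mutual best match. Across 8276 other probes, deviations from the group means of these pairs had r between 0.513 and 0.780. No next best match exceeded 0.202. Over the 150 probes the same pairs had r between 0.475 and 0.833. These are correlations across probes, which are not independent. The DHT arrays are therefore not an independent repeat of the control arrays.

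In the control arrays, which chose the probes, the 150 were a median of 0.64 higher at 9 h than at 6 h (1.56-fold) and 0.67 higher at 12 h than at 6 h (1.59-fold). The 12 h and 9 h means differed by a median of 0.01. Over all 13714 tested probes the medians were 0.01, 0.12 and 0.11 in the same order. These control differences were used by the rule and carry no test. The smaller of the 2 changes ran from 1.31 (2.48-fold) for the first probe down to 0.47 (1.38-fold) for the last. The median of the 150 probes on single control arrays lay between -3.64 and -3.15 at 6 h, between -2.89 and -2.40 at 9 h and between -2.67 and -2.42 at 12 h. Every control array at 9 h and 12 h was thus above every control array at 6 h in this median, as the choice of probes favours.

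UF_Ppr_AF_111390 had the highest score. Its control levels were -2.91, -2.44, -2.77 and -3.86 at 6 h, -2.71, -1.31, -1.49, -1.58 and -1.33 at 9 h, then -1.97, -1.53, -1.31 and -1.93 at 12 h. One 9 h array lay among the 6 h arrays and the other 8 later arrays lay above all of them. UF_Ppr_AF_102420 was the fifth by score. It read -4.48, -3.75, -4.12 and -3.01 in 6 h controls, -3.00, -2.59, -2.21, -2.45 and -2.82 at 9 h, then -1.91, -2.95, -2.46 and -2.43 at 12 h. All later control arrays were above the 6 h arrays, and the closest pair was nearly level. UF_Ppr_AF_118138, the seventh, had a narrow spread at 6 h and 12 h. It read -3.45, -3.52, -3.42 and -3.59 at 6 h (SD 0.08, n = 4), -1.75, -2.55, -1.92, -2.10 and -2.35 at 9 h, then -2.37, -2.39, -2.36 and -2.53 at 12 h (SD 0.08, n = 4). The 6 h arrays were far below all others, and the 9 h arrays spread around the 12 h ones.

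The remaining probes of the 8 with the highest scores are given by group. Mean control levels of UF_Ppr_AF_111154 were -1.90 ± 0.90 (SD, n = 4) at 6 h, -0.62 ± 0.38 (SD, n = 5) at 9 h and -0.49 ± 0.36 (SD, n = 4) at 12 h. UF_Ppr_AF_108824 was at -1.51 ± 0.70, -0.26 ± 0.67 and -0.25 ± 0.32, and UF_Ppr_AF_112425 at -4.54 ± 0.41, -3.20 ± 0.47 and -3.31 ± 0.64 (SD, same n). Those of UF_Ppr_AF_109318 were -4.97 ± 0.51, -3.70 ± 0.84 and -3.80 ± 0.59, and those of UF_Ppr_AF_109445 were -3.00 ± 0.29, -1.96 ± 0.21 and -1.95 ± 0.43. For these probes the 9 h and 12 h means were closer to each other than the SD of either group.

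Whether the same probes were also higher later in culture with DHT was asked in the 14 DHT arrays alone, whose group means the rule did not use. The rule did use these arrays for the background flag and the spread limit, so p-values can be too small. In addition, 11 of the 13 control arrays share their deviations with a DHT array of the same time. Deviations that favoured a probe in the choice on controls can therefore recur in the DHT arrays. The counts below are not independent of that choice, and how much it adds to them was not tested. From 6 h to 9 h with DHT the median change of the 150 was 0.45 (1.37-fold), with quartiles of 0.29 and 0.63 and a range from -0.04 to 1.32. The mean was higher at 9 h for 148 of the 150, against 45.7% of all tested probes, whose median change was -0.04. No single probe of the 150 passed an adjusted p of 0.05 (limma, Benjamini-Hochberg over 13714 probes). Of all tested probes 0.0219% passed upwards and 0.0219% downwards. At an unadjusted p under 0.05, 48 of the 150 were higher (32%, against 6.7% of all tested) and 0 were lower, against 7.41%. With all 27 arrays in 1 limma model, which takes its spread also from the controls that chose the probes, 4 of the 150 passed upwards, against 0.328% of all tested probes. With DHT 9 h replicate 2 left out 1 passed, against 0.525%. Quantile normalization, normexp background correction, the deposited values and slide as a block gave 0.

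All 5 DHT arrays at 9 h lay above all 5 at 6 h for 10 of the 150 (6.67%), against 1.62% of all tested probes, and below them for 0, against 1.93%. On single 9 h arrays with DHT the median of the 150 was -2.95, -2.52, -2.66, -3.09 and -3.05. On the 6 h arrays with DHT it was -3.35, -3.36, -3.42, -3.54 and -3.18. The arrays of the 2 times did not overlap, and DHT 9 h replicate 2 was the highest. Slide 2 held 1 DHT array at 9 h, replicate 2, and 4 at 6 h. Slide 3 held 2 at 9 h and 1 at 6 h, replicate 5, which had the highest median at 6 h. The median difference between 9 h and 6 h with DHT was 0.84 on slide 2, with 142 of 150 higher (94.7%, against 53.6% of all tested probes). On slide 3 it was 0.33, with 115 higher (76.7%, against 47.9%). The median difference over all tested probes was 0.05 and -0.03 on these 2 slides. For controls the within-slide medians were 0.95 on slide 1, 0.59 on slide 2 and 0.36 on slide 4. The control values belong to the arrays that chose the probes and add nothing to the direction. Both DHT slides had the higher median at 9 h, each with a single array at 1 of the 2 times, and the size differed between them.

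From 6 h to 12 h with DHT the median change of the 150 was 0.53 (1.44-fold), with quartiles of 0.38 and 0.69 and a range from -0.23 to 1.49. The mean was higher for 146 of the 150, against 57.7% of all tested probes, whose median change was 0.09. In limma, 13 of the 150 rose (8.67%) and 0 fell, against 8.9% and 0.627% of all tested probes. The share that passed was thus that of the array as a whole and is no result about the 150. At an unadjusted p under 0.05, 57 were higher (38%, against 17.2%) and 0 were lower (against 4.8%). All 12 h arrays lay above all 6 h arrays for 35 (23.3%), against 12.1% of all tested probes, and below them for 0, against 2.38%. The median of the 150 on the 12 h arrays was -2.56, -2.87, -2.96 and -2.95, all above the 6 h arrays. That was also so for the median of all tested probes. It was -2.56, -2.69, -2.72 and -2.82 on the 12 h arrays and between -3.05 and -2.85 on the 6 h arrays with DHT. The count of 13 was 7 without DHT 6 h replicate 1, 8 without DHT 12 h replicate 1 and 6 without DHT 12 h replicate 2, where 7.15%, 6.91% and 6.26% of all tested probes passed upwards. It was 3 with quantile normalization, 4 with the deposited values and 41 with normexp, where 5.27%, 5.17% and 18.4% of all tested probes passed upwards. In the same order, the mean was higher for 131, 134 and 147 of the 150. The median change of all tested probes was -0.02, -0.01 and 0.34. At an unadjusted limma p under 0.05, 29, 31 and 91 of the 150 were higher, against 11.8%, 12% and 34.2% of all tested probes.

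The 3 probes with the smallest adjusted p at 12 h rose in each of the 22 fits run for this comparison. UF_Ppr_AF_114289, a clone end without a contig name, read -1.08, -1.24, -1.47, -1.52 and -1.15 with DHT at 6 h, -0.73, -0.41, -0.31, -0.18 and -0.79 at 9 h, then 0.24, 0.68, 0.05 and -0.19 at 12 h. No array of 6 h overlapped with a later one, and the 12 h arrays were highest apart from 1 that lay level with the highest 9 h array. It rose by 1.49 (SE 0.20, 2.81-fold) from 6 h to 12 h (limma adjusted p = 0.000366). Its change to 9 h was 0.81 (SE 0.19, limma adjusted p = 0.102). In controls it was at -1.29 ± 0.18 (SD, n = 4), -0.36 ± 0.42 (SD, n = 5) and -0.39 ± 0.28 (SD, n = 4).

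UF_Ppr_AF_118138 read -3.17, -3.59, -2.92, -3.53 and -3.66 with DHT at 6 h, -2.15, -2.06, -2.02, -2.60 and -2.43 at 9 h, then -1.93, -1.74, -2.19 and -2.21 at 12 h. The 6 h arrays stood apart from all others, and 9 h and 12 h overlapped. The rise from 6 h to 12 h was 1.36 (SE 0.20, 2.56-fold, limma adjusted p = 0.000634). From 6 h to 9 h the change was 1.12 (SE 0.19, 2.18-fold), at a limma adjusted p of 0.0720. Over the alternatives that adjusted p ran from 0.00281 with all 27 arrays to 0.392.

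UF_Ppr_AF_101856 read -2.61, -2.98, -2.60, -3.30 and -3.21 with DHT at 6 h, -2.49, -2.42, -1.86, -2.22 and -2.25 at 9 h, then -1.67, -1.71, -1.82 and -1.51 at 12 h. Its 3 groups did not overlap and stood in the order of time. It rose by 1.26 (SE 0.19, 2.40-fold) from 6 h to 12 h (limma adjusted p = 0.000818). Between 6 h and 9 h it differed by 0.69 (SE 0.18, limma adjusted p = 0.129). Its control means were -3.00 ± 0.07 (SD, n = 4) at 6 h, -2.16 ± 0.41 (SD, n = 5) at 9 h and -2.19 ± 0.03 (SD, n = 4) at 12 h, narrower than with DHT at 6 h and 12 h and wider at 9 h.

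UF_Ppr_AF_117860 and UF_Ppr_AF_112329 followed by adjusted p. With DHT the first read -3.70, -3.17, -4.04, -3.91 and -3.49 at 6 h, -3.42, -3.35, -2.83, -3.17 and -3.35 at 9 h, then -3.12, -2.02, -2.65 and -2.37 at 12 h. Its 12 h arrays were above all 6 h arrays, narrowly for the nearest pair. It rose by 1.12 (SE 0.24, limma adjusted p = 0.00860) from 6 h to 12 h, a call lost with quantile normalization (adjusted p = 0.0758) and with the deposited values (0.0688). UF_Ppr_AF_112329 rose by 1.03 (SE 0.23, limma adjusted p = 0.0114), from -4.97 ± 0.31 (SD, n = 5) at 6 h to -3.95 ± 0.32 (SD, n = 4) at 12 h, and its call was lost under the same 2 settings. The other 8 that rose were UF_Ppr_AF_110514, UF_Ppr_AF_116489, UF_Ppr_AF_105514, UF_Ppr_AF_113114, UF_Ppr_AF_108824, UF_Ppr_AF_100399, UF_Ppr_AF_105596 and UF_Ppr_AF_101313, by 0.54 to 1.34. Of these, UF_Ppr_AF_108824 passed in 11 and UF_Ppr_AF_113114 in 10 of the 22 fits.

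UF_Ppr_AF_111390, which led in controls, did not pass with DHT, though at 12 h it did in 6 of the 22 fits. It read -3.07, -3.51, -2.34, -2.67 and -3.05 with DHT at 6 h, -3.06, -1.68, -1.52, -1.61 and -1.83 at 9 h, then -1.48, -1.34, -2.62 and -1.60 at 12 h. One array at 9 h and 1 at 12 h lay among the 6 h arrays. The change was 0.99 (SE 0.34, limma adjusted p = 0.213) at 9 h and 1.17 (SE 0.36, limma adjusted p = 0.0583) at 12 h. The largest change of all 150 from 6 h to 9 h was that of UF_Ppr_AF_102420, at 1.32 (SE 0.37, limma adjusted p = 0.154). Its DHT arrays read -4.37, -2.91, -3.85, -4.75 and -4.19 at 6 h, -3.38, -2.17, -1.86, -3.07 and -3.00 at 9 h, then -2.19, -2.87, -3.26 and -2.99 at 12 h. A single 6 h array reached into the later ones.

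All 9 h and all 12 h arrays with DHT were above all 6 h arrays for 6 of the 150, against 0.182% of all tested probes. They were UF_Ppr_AF_118138, UF_Ppr_AF_114289, UF_Ppr_AF_101313, UF_Ppr_AF_101856, UF_Ppr_AF_118334 and UF_Ppr_AF_101528. UF_Ppr_AF_118334 read -4.25, -3.98, -3.88, -4.46 and -4.81 at 6 h, -3.38, -3.09, -2.82, -3.81 and -3.61 at 9 h, then -3.31, -3.84, -3.71 and -3.35 at 12 h. The margin between the times was narrow. Its change was 0.93 (SE 0.23, limma adjusted p = 0.113) at 9 h and 0.72 (SE 0.24, limma adjusted p = 0.0845) at 12 h. UF_Ppr_AF_101528 had the highest signal of the 150 and read 3.80, 3.82, 3.72, 3.37 and 3.86 at 6 h, 4.10, 3.98, 4.19, 3.86 and 3.97 at 9 h, then 4.64, 3.90, 3.99 and 3.88 at 12 h. The times nearly touched, and its change of 0.39 at 12 h (SE 0.18, limma adjusted p = 0.224) turned to -0.03 with normexp.

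Both changes with DHT were above 0 for 144 of the 150 (96%), against 30% of all tested probes. Both were above 0.47, the score of the last probe chosen on the controls, for 48 (32%), against 4.49% of all tested probes and 1.98% of the 8426 that passed the background and spread limits. With the further limit of 0.3 between 9 h and 12 h, 36 (24%) met every part of the rule for the changes in the DHT arrays, against 2.28% and 1.33%. Because most control arrays pair with a DHT array, these shares are not independent of the choice on controls.

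From 9 h to 12 h with DHT the median change of the 150 was 0.05, against 0.12 for all tested probes. The 2 times were within 0.3 of each other for 100 of the 150 (66.7%), against 41.8% of all tested probes and 51.6% of the 8426. They differed by more for 50, with 12 h higher in 36 and lower in 14. In limma 1 of the 150 rose (0.667%, against 12.2% of all tested) and 1 fell (0.667%, against 2.71%). At an unadjusted p under 0.05, 5 were higher and 2 were lower, against 19.9% and 7.15%. The mean was higher at 12 h for 90 (60%), against 59.6%. That count depended on the scaling. It was 44 with quantile normalization, 47 with the deposited values and 117 with normexp. The median change of all tested probes was there -0.02, -0.003 and 0.40. All 12 h arrays lay above all 9 h arrays for 1 and below them for 2, against 12.3% and 3.47%. A smaller share of the 150 passed than of the array as a whole, and the rule had limited the same difference in controls that pair with these arrays. With quantile normalization 1 rose and 2 fell, with the deposited values 0 rose and 2 fell, and with normexp 21 rose and 0 fell. Among all tested probes the split was 1675 higher and 372 lower, and 1112 and 567 with quantile normalization, 1120 and 535 with the deposited values and 4591 and 415 with normexp. Leaving out DHT 12 h replicate 3 gave 0.

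The probe that rose was UF_Ppr_AF_114289, by 0.68 (SE 0.20, 1.60-fold, limma adjusted p = 0.0357), and it passed in 16 of 22 fits. It lost the call without DHT 9 h replicate 1 or 5, without DHT 12 h replicate 1, 2 or 3, and with the deposited values, and its adjusted p reached 0.116. The probe that fell was UF_Ppr_AF_104131. With DHT it read -4.00, -4.51, -4.04, -4.94 and -4.47 at 6 h, -3.49, -4.12, -3.71, -3.23 and -3.50 at 9 h, then -4.92, -4.18, -4.98 and -4.40 at 12 h. The 12 h arrays were below all 9 h arrays and overlapped with those of 6 h. The change from 9 h to 12 h was -1.01 (SE 0.25, limma adjusted p = 0.0142), and it was not called with all 27 arrays (0.0516), with normexp (0.169) or without DHT 12 h replicate 3 (0.0507). In controls this probe read -4.87, -2.16, -3.88 and -4.39 at 12 h, so that 1 array raised that group's mean to -3.83 ± 1.18 (SD, n = 4).

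At the other end were the probes with the smallest changes with DHT. UF_Ppr_AF_115703 was the twentieth by score in controls, with means of -6.03 ± 0.28 (SD, n = 4) at 6 h, -5.23 ± 0.27 (SD, n = 5) at 9 h and -5.08 ± 0.69 (SD, n = 4) at 12 h. With DHT it read -6.11, -6.09, -5.93, -5.69 and -5.90 at 6 h, -6.50, -5.07, -6.04, -6.98 and -5.34 at 9 h, then -5.24, -5.59, -5.91 and -5.94 at 12 h. The 9 h arrays spread to both sides of the 6 h ones, and the change was -0.04 (SE 0.31). UF_Ppr_AF_111728 changed by 0.26 (SE 0.24) at 9 h and by -0.09 (SE 0.25) at 12 h, and UF_Ppr_AF_111230, the last of the 150, by 0.23 (SE 0.37) and -0.18 (SE 0.40). None of these passed in limma (adjusted p from 0.657 to 0.970). A single 6 h array of UF_Ppr_AF_111230 with DHT read -2.27, and the others read -4.48 to -3.81. With each array left out in turn, its 12 h change reached 0.21.

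Differences between DHT and control explants are given as values only, since the control means that chose the probes enter them. The median of the 150 with DHT minus control was -0.03 at 6 h (65 higher, 85 lower), -0.26 at 9 h (29 higher, 121 lower) and -0.18 at 12 h (35 higher, 115 lower). Over all tested probes it was -0.01, -0.02 and -0.02. Within the 11 pairs of mutual best matches the median difference of the 150 was between -0.17 and 0.06 at 6 h (below 0 in 3 of 4 pairs), between -0.25 and -0.07 at 9 h (4 of 4) and between -0.25 and -0.05 at 12 h (3 of 3). Over all tested probes it ran from -0.09 to 0.10, from -0.06 to 0.02 and from -0.07 to -0.01 in the same pairs. All DHT arrays lay below all control arrays for 1 of the 150 at 6 h, 0 at 9 h and 11 at 12 h, against 0.117%, 0.0219% and 1.59% of all tested probes. They lay above for 0, 0 and 2, against 0.0948%, 0.0875% and 0.78%. The 2 above at 12 h were UF_Ppr_AF_101856, at -1.68 ± 0.13 with DHT and -2.19 ± 0.03 in controls, and UF_Ppr_AF_118138, at -2.02 ± 0.23 and -2.41 ± 0.08 (SD, n = 4 each). Of the 11 below, UF_Ppr_AF_118479 was at -6.03 ± 0.21 with DHT and -5.28 ± 0.12 in controls, and UF_Ppr_AF_118334 at -3.55 ± 0.26 and -2.98 ± 0.12 (SD, n = 4 each). These were picked after their values were seen. Nothing is read from the counts or the pairs, because the rule favours low controls at 6 h and high controls at 9 h and 12 h.

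The same rule applied to the means of the DHT arrays chose 150 probes of which 44 (29.3% of each list) were among those chosen on controls. Those 150 were a median of 0.59 higher at 9 h and 0.61 higher at 12 h than at 6 h with DHT, which chose them. In controls they were 0.57 and 0.59 higher, and 149 and 147 of them were higher, against 50.8% and 59% of all tested probes. These control values are not independent of the choice. The 44 shared probes were chosen on the control means too, and most control arrays pair with a DHT array. DHT minus control medians of the list chosen on DHT were -0.05, -0.04 and 0.00 at 6, 9 and 12 h. The list chosen on controls had -0.26 and -0.18 at 9 h and 12 h. The means that chose each list enter its differences, so nothing is read from them. The 44 shared probes include UF_Ppr_AF_102420, UF_Ppr_AF_118138, UF_Ppr_AF_111390, UF_Ppr_AF_112425 and UF_Ppr_AF_112329.

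The 150 were dim among the 8426 probes within the background and spread limits. Against all tested probes they were not clearly so. On single arrays the median of the 150 was between -3.64 and -2.40, and that of all tested probes between -3.09 and -2.49. The mean level of the 150 over all arrays had a median of -2.93 and quartiles of -4.00 and -1.87, against a median of -0.83 for the 8426. It was below 0 for 136 (90.7%), against 58.1%. Their mean within-group SD had a median of 0.41, against 0.32. The 1973 probes of the 8426 with a mean level between the quartiles of the 150 had a median change with DHT of -0.04 from 6 h to 9 h and of 0.30 from 6 h to 12 h. For the 150 within the same range it was 0.45 and 0.52. From 9 h to 12 h it was 0.32 for the 1973 and 0.05 for the 150. At 12 h, then, dim probes in general were higher than at 6 h, while at 9 h they were not.

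In the dimmest bin (mean level -7 to -4) 38 of the 150 had a median change with DHT of 0.37 at 9 h and 0.52 at 12 h, against -0.07 and 0.41 for all 1403 probes there. In the bins between, the 150 had 0.44 to 0.49 at 9 h and 0.48 to 0.56 at 12 h, against -0.04 to -0.03 and 0.02 to 0.38. In the brightest (0 to 5) 14 had 0.48 and 0.47, against -0.05 and -0.08 for 3430. On the dim slide 5 the 12 h DHT arrays were a median of 0.61 above the 6 h DHT mean over the 150, and on slide 7 they were 0.46 above it. In controls the medians were 0.82, 0.68 and 0.65 on slides 5, 6 and 7. The part of signal and slide in the 12 h values was not tested.

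Deviations of the 150 from their group means were little alike. The median r between 2 of the 150, over the 27 arrays, was 0.12, with quartiles of -0.09 and 0.34, against a median of 0.02 for pairs of the 8426. Arrays paired across treatments share these deviations, so the number of separate points is below 27.

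Names show what the probes were designed on. Of the 150, 120 (80%) were named by contig, 28 (18.7%) by sequence number and 2 by another clone name, against 86%, 13.7% and 0.237% of the 8426. The names of 42 (28%) carried the letters rc, against 22.4%. For 32 of the 150 the array held 45 tested probes whose contig name has the same stem. Those 45 had median changes of 0.13 and 0.20 in controls at 9 h and 12 h, and of 0.14 and 0.05 with DHT. Of the 45, 62.2% and 73.3% were higher in controls at 9 h and 12 h, against 50.8% and 59% of all tested probes, and 64.4% and 62.2% with DHT, against 45.7% and 57.7%. At 12 h with DHT the share was thus near that of the array, and the median of 0.05 was below its 0.09. In limma none of the 45 passed at 9 h with DHT, and at 12 h 5 rose (11.1%, against 8.9% of all tested) and 0 fell. The 5 were UF_Ppr_AF_114595 (by 2.09), UF_Ppr_AF_109629 (1.12), UF_Ppr_AF_117174 (1.03), UF_Ppr_AF_115112 (0.74) and UF_Ppr_AF_118456 (0.68), with adjusted p from 0.000524 to 0.0244. UF_Ppr_AF_105177, the relative of UF_Ppr_AF_101856, changed by 0.67 and 0.21 with DHT. UF_Ppr_AF_118138 had 2 tested relatives, UF_Ppr_AF_102040, which changed by 0.14 and 0.27, and UF_Ppr_AF_118745, which differed by -2.18 and 0.26. UF_Ppr_AF_118745 was well above background on just 24 of the 27 arrays and differed by -1.69 and 0.70 in controls. None of these 3 relatives passed in limma (adjusted p from 0.237 to 0.946).

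Of the 150, 3 had AM in their name and shared a contig with an AF probe that was not chosen. The contig names of these 3 end in the letters ms and otherwise match those of the AF partners. In controls from 6 h to 9 h, UF_Ppr_AM_120682 was 0.77 higher and its partner UF_Ppr_AF_108124 was 0.53 higher. UF_Ppr_AM_120251 was 0.61 higher while its partner UF_Ppr_AF_118153 differed by -0.27, and UF_Ppr_AM_120492 was 0.47 higher while UF_Ppr_AF_106695 differed by -0.66. From 6 h to 12 h UF_Ppr_AF_106695 differed by 0.21 in controls and 0.24 with DHT, and UF_Ppr_AM_120492 by 0.58 and 0.22. The signs of the 2 probes of a contig were opposite in 2 of the 3 cases at 9 h and in 1 of the 3 at 12 h, in controls and with DHT alike, and the control changes of the AM probes were part of their choice.

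At the edge of the list, UF_Ppr_AF_114188, UF_Ppr_AM_120492 and UF_Ppr_AF_111230 were the last 3 probes inside, with a score of 0.4681 for the last. Just outside were UF_Ppr_AF_100923, with 0.4678, UF_Ppr_AF_100007 and UF_Ppr_AF_115831. With DHT the 3 inside changed by 0.27, 0.16 and 0.23 from 6 h to 9 h, and the 3 outside by 0.31, 0.46 and 0.79. The border separates probes with like scores on the controls. Each of the 3 outside changed more from 6 h to 9 h with DHT than each of those inside. From 6 h to 12 h that order did not hold, with 0.46, 0.22 and -0.18 inside and 0.50, 0.22 and 0.51 outside. None of these changes passed in limma (adjusted p from 0.165 to 0.863).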

How the data were processed

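Total RNA of the explants was labelled with Cy3 and hybridised to 1-colour Agilent arrays, per the labels. The authors deposited scanner files of Feature Extraction 10.7.1.1, per the file headers, with the linear intensity of each spot after its background was subtracted (processed signal), the median intensity of spot and local background, and other columns, flags of 0 or 1 (well above background, outlier). The authors also deposited a table of log2 values whose normalization is not given in the sources used here. Each of its columns correlated with its own array at r of at least 0.998 across spots, with medians of 8.13 to 8.20.

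The levels of the 15208 non-control probes were set relative to each array's 75th percentile. Tested were 13714 probes without an outlier flag on any array and well above background on at least 4. Means of the 3 DHT groups were fitted on the 14 DHT arrays with limma 3.58.1 in R 4.3.3, with Benjamini-Hochberg adjustment at 0.05. The control time differences and DHT against control were described, not tested. The fit was tried on simulated data with known changes and independent noise for each probe and array. Those data held no slides, paired arrays or choice of probes, so the trial covers the calculation alone. Summaries used Python 3.11.15, numpy 2.4.6 and pandas 2.3.3. The number of arrays limits the precision.

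The members, the lists and the tests were chosen with earlier results of these data known. Groups are the agent and time of the labels, and replicate numbers only name arrays. Named are the 8 probes with the highest score, the 4 with the smallest lower change with DHT, 3 on each side of the border, and the 3 brightest and 3 dimmest. A planned choice among probes past the threshold at both 9 h and 12 h gave 0. The remaining named probes were chosen after their values were seen. Planned gene lists and cell type markers were not run, since the names could not be paired with genes.

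Alternatives were all 27 arrays in the fit, quantile normalization, normexp (offset 50) on the median signal in place of the mean signal, the authors' log2 values as deposited, keeping dim probes, keeping just those above background everywhere, a block for slide (fixed or random) and leaving out each array. Those of the DHT minus control medians and of the 9 h to 12 h changes of named probes were added after the data were seen.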

Additional observations from a re-analysis of the deposited data

Results flagged for a closer look

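In each of the 32 named probes, and for the median of the 150, each group was screened for an array far from the others of its group, with a gap that is large against the range of the group. Of 198 groups screened, 192 of them of named probes, 14 had such an array, where chance flags about 1 in 20, here 9.9. None of the 14 was a group of the median. In 2 probes the arrays concerned pair across the treatments. UF_Ppr_AF_111390 had its lowest 9 h array at -2.71 in controls and at -3.06 with DHT, in replicate 1 of each, while the next arrays were at -1.58 and -1.83. UF_Ppr_AF_108824 had its lowest 6 h array at -2.55 in controls (next -1.19) and at -2.67 with DHT (next -1.52), in control replicate 1 and DHT replicate 4, which are mutual best matches over the other probes.

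Low arrays in controls were also found at 6 h for UF_Ppr_AF_113344 (1.20, next 1.38), UF_Ppr_AF_101856 (-3.10, next -2.98) and UF_Ppr_AF_118334 (-4.60, next -3.81). The same held at 9 h for UF_Ppr_AF_110758 (-0.86, next 0.21) and at 12 h for UF_Ppr_AF_118138 (-2.53, next -2.39). With DHT at 6 h, UF_Ppr_AF_101528 had a low array at 3.37 (next 3.72) and UF_Ppr_AF_104293 at -7.48 (next -5.83). High arrays with DHT were those of UF_Ppr_AF_100007 at 9 h (-1.02, next -2.05), UF_Ppr_AF_114188 at 12 h (-0.53, next -1.08) and UF_Ppr_AF_101528 at 12 h (4.64, next 3.99).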

How the results depend on the processing

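The median change of the 150 probes with DHT from 6 h to 9 h was 0.43 with quantile normalization, 0.45 with the deposited values and 0.34 with normexp, and from 0.35 to 0.51 with each array left out. From 6 h to 12 h it was 0.28, 0.30 and 0.63, and from 0.43 to 0.56. The median of all tested probes moved there from 0.09 to -0.02, -0.01 and 0.34, so relative to it the 150 were higher by 0.44 as reported and by 0.30, 0.31 and 0.29. From 9 h to 12 h the median was -0.17, -0.15 and 0.27, with -0.02, 0.00 and 0.40 for all tested probes (0.12 as reported), and from -0.04 to 0.18 with each array left out. The median DHT minus control difference kept its sign under these scalings, between -0.23 (deposited) and -0.21 (normexp) at 9 h and between -0.16 (deposited) and -0.09 (normexp) at 12 h. The choice on controls favours that sign, so nothing is read from it. The count that rose from 6 h to 9 h was 4 with all 27 arrays, against 0.328% of all tested probes. It was 1 with only probes well above background everywhere, against 0.24% of the 10015 tested there. With each array left out it was 0 to 1, against 0% to 0.525%. The count from 6 h to 12 h was 25 with all 27 arrays (16.7%, against 9.66% of all tested probes). That fit takes its spread also from the controls that chose the probes. The 12 h count was 3 with quantile normalization, 41 with normexp and 4 with the deposited values, against 5.27%, 18.4% and 5.17%. With each array left out it was 6 to 17, against 6.26% to 9.73%. The count changed from 9 h to 12 h was 21 with normexp (14%), all higher, where 33.5% of all tested probes rose. With each array left out that count was 0 to 3, where 9.26% to 14.5% of all tested probes rose. Rerunning the rule chose 68 of the 150 again with quantile normalization, 68 with the deposited values and 93 with normexp, and 106 to 124 without single control arrays. The cause of these differences was not tested.

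Of 66 named changes, 13 turned sign under an alternative, none of them called. With normexp, the 9 h change was -0.052 for UF_Ppr_AM_120682, -0.00085 for UF_Ppr_AF_118479 and -0.027 for UF_Ppr_AF_102033, and the 12 h change was 0.14 for UF_Ppr_AF_104131, 0.030 for UF_Ppr_AF_111230 and -0.032 for UF_Ppr_AF_101528. With quantile normalization, the 12 h change was -0.11 for UF_Ppr_AF_115703, -0.049 for UF_Ppr_AM_120492, -0.0044 for UF_Ppr_AF_100007 and -0.33 for UF_Ppr_AF_118479. With the deposited values, UF_Ppr_AF_115703 was at 0.0029 at 9 h and -0.10 at 12 h, and UF_Ppr_AF_118479 at -0.35 at 12 h. With slide as a fixed block UF_Ppr_AF_115703 was at 0.21 at 9 h. With each array left out, the 12 h change ran from -0.34 to 0.21 for UF_Ppr_AF_111230, from -0.23 to 0.11 for UF_Ppr_AF_111728 and from -0.16 to 0.13 for UF_Ppr_AF_118479. The 9 h change ran from -0.27 to 0.21 for UF_Ppr_AF_115703, from -0.056 to 0.31 for UF_Ppr_AM_120492 and from -0.062 to 0.47 for UF_Ppr_AF_118479.

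No paired analysis was possible because the labels give the samples no replicate numbers and the tested comparisons are between times within DHT, while the pairs found in the data join DHT with control arrays of 1 time, whose differences are given as values. The medians of the 150 moved more between scalings in the comparisons with 12 h than between 9 h and 6 h. The cause was not tested.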
